A study of Mus musculus with 18 samples.

Results

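Liver RNA of 18 mice from the chronic-plus-binge ethanol model was examined for 39 cell cycle and DNA replication genes. The genes were chosen by name, and 39 of 39 were found among the 15052 genes of the deposited table. They comprised 19 genes of DNA replication, 4 regulators of G1 and S phase entry and 16 genes of mitosis, and these classes were described apart. All 39 genes entered every test. Their values were low to moderate, since 7 of them had a mean under 50 units over the 18 mice, and *Plk1* alone was listed at 0, in 1 mouse.

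Dividing cells copy their DNA once per cycle. The MCM2 to MCM7 proteins form the ring that is loaded onto replication origins by CDC6 and CDT1 and is turned into the working helicase with CDC45, after which polymerases, PCNA and DNA ligase I make the new strands. Cyclin A, cyclin B and CDK1 then drive mitosis, and their messages peak later in the cycle than those of the replication genes. Most hepatocytes of an adult liver are at rest and re-enter the cycle after injury, while resident macrophages and other non-parenchymal cells can also divide. Bulk values do not say which cells held the messages, and fewer cells of a type and less RNA per cell cannot be told apart.

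The 4 groups were pair-fed WT (Ctrl_WT, n = 4), pair-fed *Apoe* KO (Ctrl_ApoE, n = 5), EtOH-fed WT (EtOH_WT, n = 5) and EtOH-fed *Apoe* KO mice (EtOH_ApoE, n = 4, numbered 1, 2, 4 and 5). WT mice were C57BL/6J, and the KO is a germline loss of *Apoe* in every cell type, so that loss in hepatocytes and in macrophages cannot be told apart. All mice were 10 to 12 weeks old and labelled female, and all had 5 days of acclimation to liquid diet. For the EtOH-fed groups the diet then held 5% (v/v) ethanol over 10 days, and 5 g/kg ethanol was gavaged on day 11. The pair-fed groups had an isocaloric diet and 9 g/kg dextrin-maltose, and livers were taken 9 h after the gavage.

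The values are read counts that the authors scaled to a nearly common total, between 32267493 and 32292618 per mouse, and are called units here. The spacing of low values put the depth at 5.6 to 52.2 M reads in 16 of 18 mice, while EtOH-fed WT mice 2 and 5 could not be resolved. The median was 14.9 M in pair-fed WT, 23.9 M in pair-fed KO, 39.5 M in EtOH-fed WT (3 mice resolved) and 10.9 M in EtOH-fed KO mice. Depth thus differed between the EtOH-fed genotypes, and its part in their differences was not tested. *Apoe* lay between 611230 and 798431 units in WT and between 8586 and 108651 units in KO mice. The summed level of 6 hepatocyte markers was 2147182 to 3933223 units, and all 6 were detected. EtOH-fed *Apoe* KO mouse 1 went against its label as a female, with 826 units of *Xist* against 15227 to 30379 in the other 17 mice and 1077 units of the Y-linked *Ddx3y* against at most 118. Without this mouse, 5 instead of 6 members passed the test between the EtOH-fed genotypes, where *Cdk1* and *Cdc20* lost their call and *Tpx2* gained one. Between EtOH-fed and pair-fed *Apoe* KO mice 9 members were called with and without it, but *Pcna* and *Cdc20* gave way to *Top2a* and *Bub1b*, and for the interaction 7 were called, with *Mcm2* in place of *Cdk1*.

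**Figure D1:**
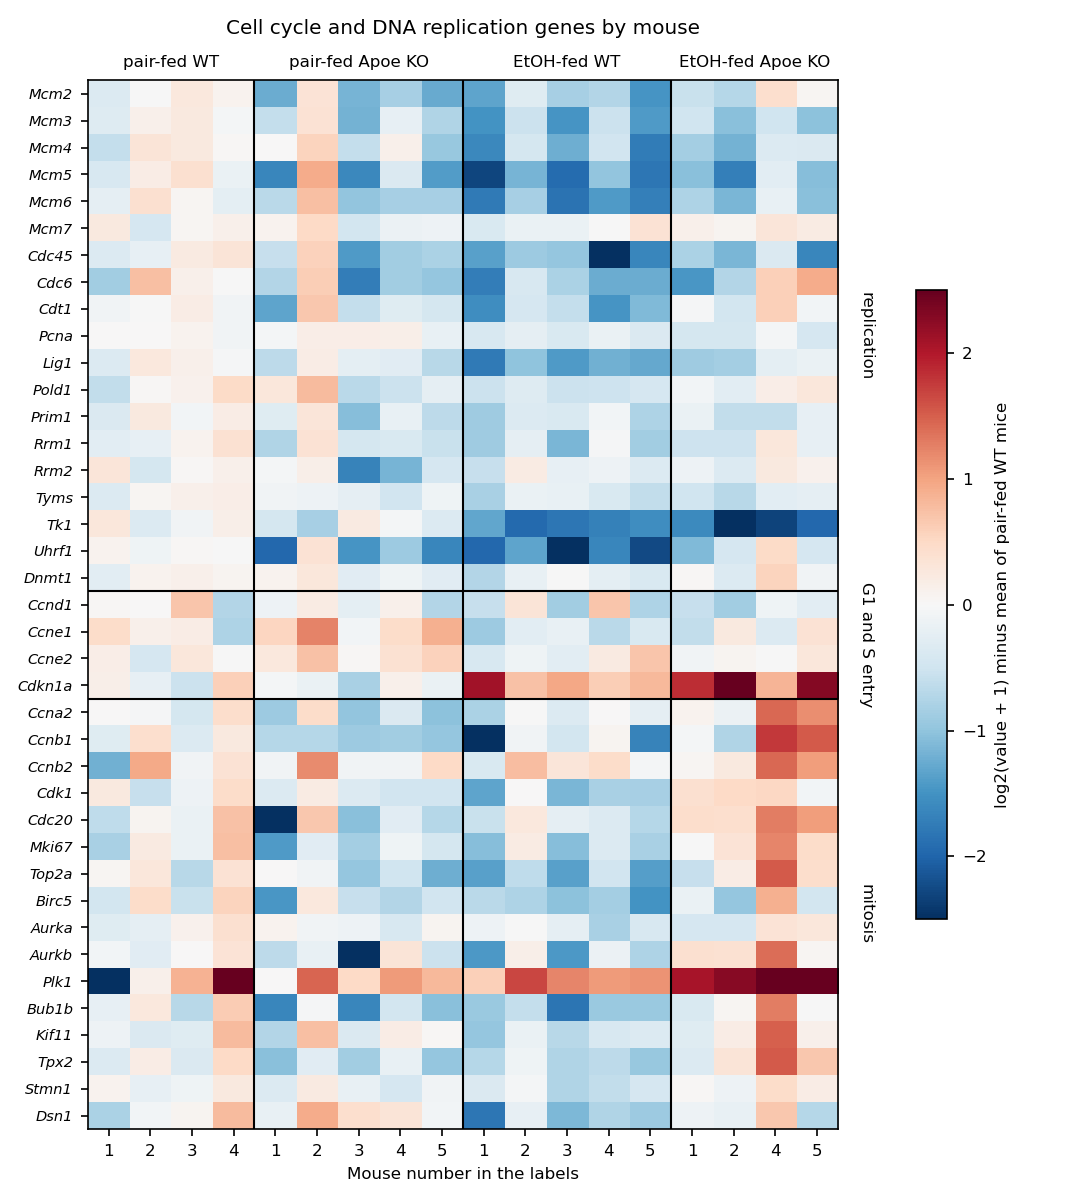
Level of each of the 39 genes in each of the 18 mice, as log2(value + 1) minus the mean of the pair-fed WT mice (colour, with values beyond the scale drawn in its end colours). Replication genes are mostly blue in EtOH-fed WT mice, and mitosis genes are mostly red in EtOH-fed *Apoe* KO mice, above all in mouse 4.

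In WT mice, replication genes were lower with ethanol. Between EtOH-fed and pair-fed WT mice, 10 of 19 replication genes fell (*Mcm2*, *Mcm3*, *Mcm4*, *Mcm5*, *Mcm6*, *Cdc45*, *Cdt1*, *Lig1*, *Tk1* and *Uhrf1*), 1 of 16 mitosis genes fell (*Top2a*, the topoisomerase that untangles sister chromosomes) and 1 of 4 entry regulators rose (*Cdkn1a*, the CDK inhibitor p21). Of all 15052 genes, 6.52% fell and 6.19% rose by the same rule, an adjusted p under 0.05 in limma. The log2 fold change was below 0 in 19 of 19 replication genes, with a median of -1.03, and in 14 of 16 mitosis genes, with a median of -0.63, against a median of -0.01 over all genes. The EtOH-fed values of 9 of 19 replication genes lay below every pair-fed value, where 6.96% of all genes did so. *Cdkn1a* was higher without overlap, as were 7.43% of all genes, and *Birc5* lower.

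In *Apoe* KO mice, mitosis genes were higher with ethanol, while replication genes had no common direction. Between EtOH-fed and pair-fed *Apoe* KO mice, 6 of 16 mitosis genes rose (*Ccna2*, *Ccnb1*, *Cdc20*, *Mki67*, *Plk1* and *Tpx2*), *Cdkn1a* rose, and 2 of 19 replication genes fell (*Tk1* and *Pcna*). Of all genes, 16.3% rose and 6.92% fell here. Over all 39 members, the 7 that rose are near the general share, though by class 6 of 16 mitosis and 0 of 19 replication genes rose. The mitosis genes had a median log2 fold change of 1.04, against 0.13 over all genes, and 15 of 16 were above 0. The replication genes had a median of -0.02, with 9 above 0 and 10 below. Only 2 mitosis genes, *Mki67* and *Plk1*, had EtOH-fed values that all lay above the pair-fed values, where 14.0% of all genes did so, as did *Cdkn1a*, and *Tk1* was lower without overlap, as were 6.01%. The number of members called fell from 9 to 4 without pair-fed *Apoe* KO mouse 3, and to 5 without pair-fed mouse 1 or 5 or EtOH-fed mouse 4 or 5. Scaling by median-of-ratios size factors, which brings the all-gene median to 0.00, changed the calls over all genes from 2446 higher and 1042 lower to 1656 higher and 1607 lower. With these factors 7 members were called, 4 of them mitosis genes that rose, as *Ccna2* and *Cdc20* lost their calls. With voom on estimated reads 6 members were called, 3 of them mitosis genes that rose.

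Among EtOH-fed mice, mitosis genes were higher in *Apoe* KO than in WT. Of the 39 members, 6 were called, all higher in the KO, namely *Cdk1*, *Cdc20*, *Mki67*, *Top2a* and *Plk1* of the mitosis genes and *Uhrf1* of the replication genes, where 4.69% of all genes were called, 4.25% higher and 0.445% lower. The median log2 difference was 1.12 over the mitosis genes, with 16 of 16 above 0, and 0.41 over the replication genes, with 17 of 19 above 0, against 0.11 over all genes. The values of both genotypes did not overlap in 6 members (*Lig1*, *Pold1*, *Uhrf1*, *Cdc20*, *Plk1* and *Bub1b*), where 7.12% of all genes were higher in the KO without overlap and 1.0% lower. These 6 calls were sensitive to leaving out 1 mouse, and the calls over all genes fell as well, from 706 to between 327 and 620. The median over the mitosis genes was 0.87 to 1.29 in these fits, against 0.08 to 0.14 over all genes. Without EtOH-fed WT mouse 2, 8 members were called. No member was called without EtOH-fed WT mouse 1 or without EtOH-fed *Apoe* KO mouse 4, 1 was called without EtOH-fed WT mouse 3, EtOH-fed WT mouse 5 or EtOH-fed *Apoe* KO mouse 5, 2 without EtOH-fed *Apoe* KO mouse 2, and 3 without EtOH-fed WT mouse 4. Under median-of-ratios size factors, which bring the all-gene median from 0.11 to -0.02, the calls of *Uhrf1* and *Plk1* remained, and the calls over all genes went from 639 higher and 67 lower to 380 higher and 126 lower.

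On the pair-fed diet, limma called no member between the genotypes, where 0.87% of all genes were higher in the KO and 0.864% lower. At an unadjusted p under 0.05, 5 members were lower and 0 higher in the KO, where 9.31% and 10.6% of all genes were, and *Ccnb1* was lower without overlap, as were 3.02% of all genes, against 4.01% higher. The log2 fold changes were nonetheless mostly negative, in 18 of 19 replication genes with a median of -0.38 and in 13 of 16 mitosis genes with a median of -0.56. Pair-fed *Apoe* KO mouse 2 stood apart from the other 4 mice of its group, with the highest value in 17 of 19 replication genes and 10 of 16 mitosis genes. Without this mouse, 4 replication genes were called lower in the pair-fed KO (*Mcm2*, *Mcm5*, *Mcm6* and *Uhrf1*), with log2 fold changes between -1.50 and -0.83. The mouse was singled out by its high values of these genes, so that leaving it out had to lower their KO means. Leaving out any other mouse gave no call of a member.

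The ethanol effect differed between the genotypes in 7 of 39 members, by the interaction of diet and genotype over all 18 mice. In each of the 7 (*Lig1*, *Uhrf1*, *Cdk1*, *Mki67*, *Top2a*, *Bub1b* and *Tpx2*), the log2 fold change with ethanol was greater in *Apoe* KO than in WT mice, where 2.84% of all genes were called, 2.6% in this direction and 0.239% in the other. The interaction had a median of 1.45 on the log2 scale over the mitosis genes, with 16 of 16 above 0, and of 0.80 over the replication genes, with 17 of 19 above 0, against 0.11 over all genes. With size factors the calls over all genes went from 392 positive and 36 negative to 294 and 84, and 4 members remained (*Uhrf1*, *Top2a*, *Bub1b* and *Tpx2*). With voom on estimated reads 2 remained (*Uhrf1* and *Cdk1*), and with sample weights 4 (*Uhrf1*, *Lig1*, *Top2a* and *Bub1b*). *Uhrf1* was called whichever of the 18 mice was left out, though not under every alternative setting. The number of members called was 12 without pair-fed *Apoe* KO mouse 2, and 1 (*Uhrf1*) without pair-fed WT mouse 4, pair-fed *Apoe* KO mouse 3, EtOH-fed WT mouse 1 or EtOH-fed *Apoe* KO mouse 4. It was 2 to 4 without pair-fed WT mouse 2, pair-fed *Apoe* KO mouse 1 or 5, EtOH-fed WT mouse 3, 4 or 5, or EtOH-fed *Apoe* KO mouse 5.

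By the study's criterion, a log2 fold change beyond 1 with an unadjusted p under 0.05, other shares of genes were marked. It marked 12 members between the EtOH-fed genotypes, where it marked 4.38% of all genes as higher and 0.631% as lower. With ethanol it marked 13 members in WT mice (1.89% and 3.59% of all genes) and 10 in KO mice (6.25% and 2.16%). It marked 1 member between the pair-fed genotypes (0.824% and 1.96%) and 18 for the interaction (6.78% and 0.671%).

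**Figure D2:**
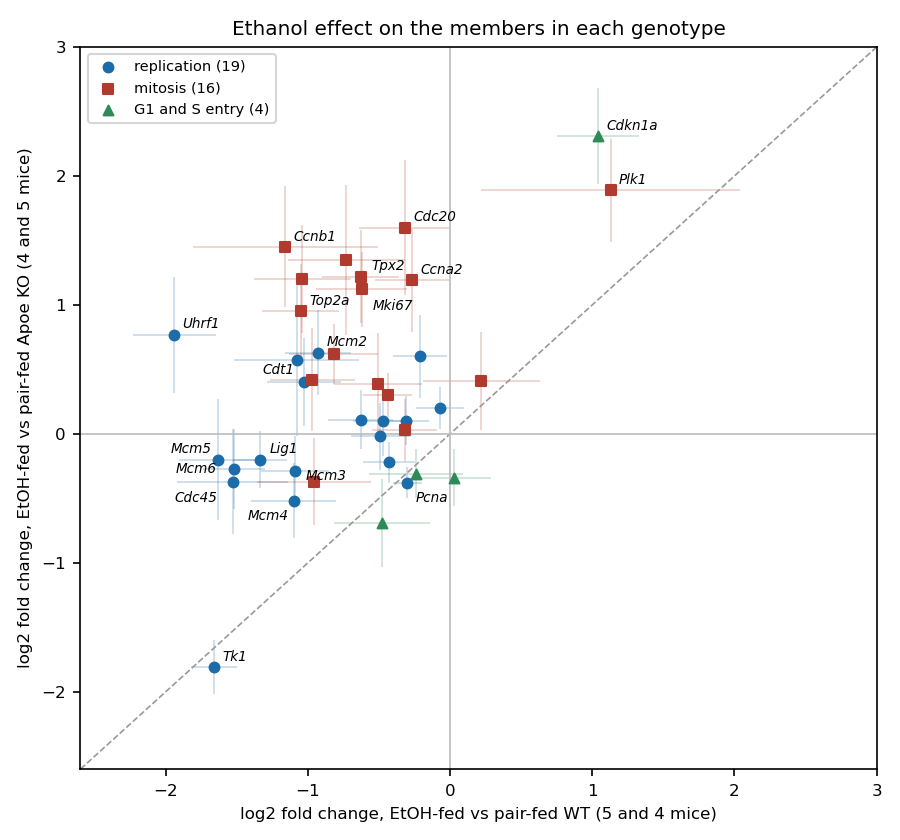
Log2 fold change with ethanol in WT mice (x axis) and in *Apoe* KO mice (y axis) for the 39 genes, with SE bars and the line of equal change, and with names for the members called in either. Most points lie above the line, replication genes to the left of 0 and mitosis genes above 0, while *Tk1* and *Cdkn1a* changed in the same direction in both genotypes.

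Averaged over the genes of a class, the level of each mouse relative to pair-fed WT mice was also compared. The replication genes averaged 0.00 ± 0.16 (log2 units, SD, n = 4) in pair-fed WT, -0.42 ± 0.46 (n = 5) in pair-fed *Apoe* KO, -0.93 ± 0.25 (n = 5) in EtOH-fed WT and -0.46 ± 0.30 (n = 4) in EtOH-fed *Apoe* KO mice. All 5 EtOH-fed WT mice, from -1.23 to -0.56, lay below the 4 pair-fed WT mice, from -0.24 to 0.12. The mitosis genes averaged 0.00 ± 0.49, -0.35 ± 0.42, -0.53 ± 0.38 and 0.51 ± 0.56 in the same order of groups. The 4 EtOH-fed *Apoe* KO mice, from 0.07 to 1.28, all lay above the 5 EtOH-fed WT mice, from -0.97 to 0.03, but overlapped with pair-fed WT mice, from -0.53 to 0.64. EtOH-fed *Apoe* KO mouse 4 had the highest value of its group in 16 of 16 mitosis genes and 13 of 19 replication genes. It was also 1 of the shallower libraries, at 7.88 M estimated reads, and had the largest size factor, 1.16, and the part of either in its values was not tested.

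**Figure D3:**
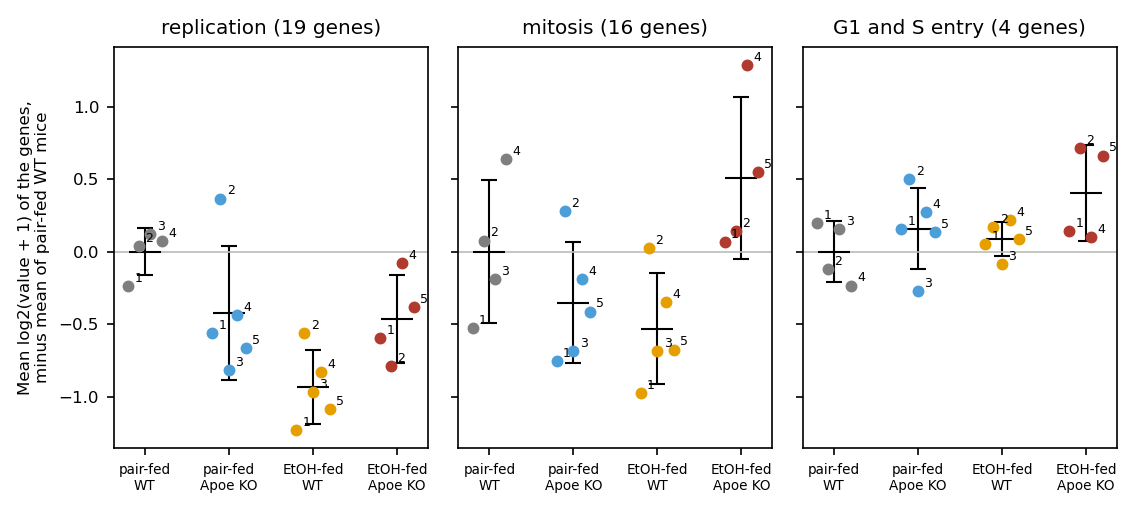
Mean over the genes of each class of log2(value + 1) minus the mean of pair-fed WT mice, per mouse (points, numbered as in the labels), with the mean and SD of each group (bars). By group mean, EtOH-fed WT mice are lowest for replication genes, and EtOH-fed *Apoe* KO mice, led by mouse 4 at 1.28, are highest for mitosis genes.

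The stretches around the start sites of the members were searched for motifs, and those of *Mcm5*, *Mcm6*, *Cdk1* and *Top2a* are shown. Promoter sequences of RefSeq (GRCm38.p6, 250 bases before to 50 after the start) were matched for 32 of 39 members, and *Mcm4*, *Ccnd1*, *Ccne2*, *Ccna2*, *Aurkb*, *Tpx2* and *Stmn1* had no match. Each was searched on both strands for 3 motifs known from cell cycle promoters. These were the E2F site, taken as TTTCCCGC, TTTCGCGC, TTTGCCGC or TTTGGCGC, the cell cycle genes homology region (CHR), taken as TTTGAA, and the CCAAT box, taken as CCAAT. In the promoters below, written 5′ to 3′ on the strand of the gene, capitals mark every match of these motifs on either strand, and matches of the E2F site in a row can overlap. *Mcm5* (chr8:75109259-75109558, plus strand) and *Mcm6* (chr1:128359656-128359955, minus strand) are 2 of the helicase genes that fell in EtOH-fed WT mice, and *Cdk1* (chr10:69352863-69353162, minus strand) and *Top2a* (chr11:99024140-99024439, minus strand) are 2 of the mitosis genes called higher in the KO among EtOH-fed mice.
Mcm5: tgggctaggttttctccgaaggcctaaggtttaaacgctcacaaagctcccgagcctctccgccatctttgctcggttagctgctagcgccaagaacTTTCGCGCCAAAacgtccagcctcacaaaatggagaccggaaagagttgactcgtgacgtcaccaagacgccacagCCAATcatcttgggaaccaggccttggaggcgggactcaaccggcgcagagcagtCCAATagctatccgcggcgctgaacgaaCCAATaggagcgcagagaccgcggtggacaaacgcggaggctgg
Mcm6: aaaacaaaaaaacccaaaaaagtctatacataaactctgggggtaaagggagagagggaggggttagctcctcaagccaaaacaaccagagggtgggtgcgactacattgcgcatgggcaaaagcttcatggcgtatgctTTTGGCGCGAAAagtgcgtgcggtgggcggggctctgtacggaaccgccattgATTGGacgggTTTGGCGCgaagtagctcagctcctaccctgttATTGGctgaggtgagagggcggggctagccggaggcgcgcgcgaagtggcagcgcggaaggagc
Cdk1: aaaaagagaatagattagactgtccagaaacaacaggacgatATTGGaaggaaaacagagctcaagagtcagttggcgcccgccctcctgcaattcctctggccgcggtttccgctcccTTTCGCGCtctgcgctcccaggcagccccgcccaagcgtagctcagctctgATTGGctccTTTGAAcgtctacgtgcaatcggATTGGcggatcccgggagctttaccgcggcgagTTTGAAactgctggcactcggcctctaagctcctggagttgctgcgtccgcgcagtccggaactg
Top2a: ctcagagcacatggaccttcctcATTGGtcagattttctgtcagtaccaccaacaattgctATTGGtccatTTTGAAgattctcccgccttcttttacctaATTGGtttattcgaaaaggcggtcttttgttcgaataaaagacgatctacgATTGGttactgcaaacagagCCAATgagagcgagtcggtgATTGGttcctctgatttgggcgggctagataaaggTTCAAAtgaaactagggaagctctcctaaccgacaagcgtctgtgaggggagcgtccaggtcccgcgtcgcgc

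The E2F site was found in 6 of 8 licensing and helicase promoters and 7 of 18 replication promoters in all, in 2 of 12 mitosis promoters and in 2.32% of the promoters of 27025 genes of that length. The CHR was found in 9 of 12 mitosis promoters and 3 of 18 replication promoters, and in 18.1% of all. The CCAAT box was found in 10 of 12 mitosis promoters and 12 of 18 replication promoters, and in 37.9% of all. Among the replication genes, the E2F site was found in some that fell in EtOH-fed WT mice and in some not called. *Mcm3*, *Mcm5*, *Mcm6* and *Cdt1* fell and held it, while *Mcm2*, *Cdc45*, *Lig1*, *Tk1* and *Uhrf1* fell without it. *Mcm7*, *Cdc6* and *Pold1* held it and were not called, with log2 fold changes of -0.07, -1.08 and -0.47. In the sequences shown, *Mcm5* and *Mcm6* hold E2F sites and no CHR, and *Top2a* holds 2 CHR matches and no E2F site, while *Cdk1* holds both. None of the 3 motifs was in the promoters of *Cdkn1a*, *Ccne1*, *Lig1*, *Tk1*, *Tyms* or *Birc5*. A match describes the letters in this window only.

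**Figure D4:**
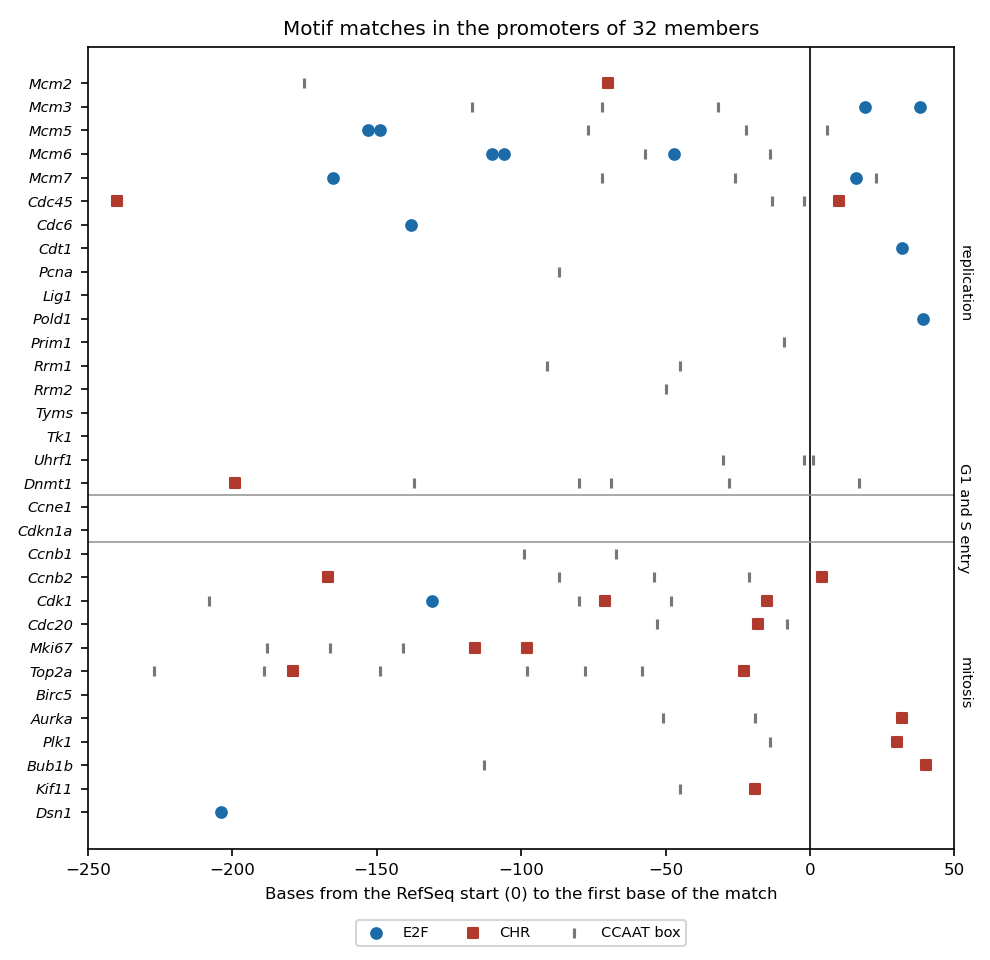
Position of each match of the E2F site, the CHR and the CCAAT box, on either strand, in the promoters of 32 members, in bases from the RefSeq start. E2F sites lie mostly in helicase genes and CHR matches mostly in mitosis genes.

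Of the origin licensing and helicase genes, 7 of 9 fell with ethanol in WT mice and 0 of 9 were called in *Apoe* KO mice. *Mcm6*, an MCM ring subunit (chromosome 1, 128331590 to 128359664, GRCm38), was listed at 455, 703, 551 and 447 units in pair-fed WT mice and at 155, 296, 146, 197 and 161 units in EtOH-fed WT mice. The groups did not overlap, and the log2 fold change was -1.52 ± 0.22 (SE, adjusted p = 0.000768). In pair-fed *Apoe* KO mice it was listed at 330, 891, 266, 299 and 296 units, with mouse 2 above all other mice of the series, and in EtOH-fed *Apoe* KO mice at 308, 241, 467 and 258 units. The log2 fold change there was -0.27 (95% interval -0.94 to 0.41, adjusted p = 0.584), and it turned to 0.05 without mouse 2.

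*Mcm5*, another ring subunit (chromosome 8, 75109569 to 75128439), was listed at 196, 295, 343 and 230 units in pair-fed WT and at 52, 116, 68, 131 and 74 units in EtOH-fed WT mice. All EtOH-fed values lay below the pair-fed ones, with a log2 fold change of -1.63 ± 0.28 (adjusted p = 0.00243). In *Apoe* KO mice the values were 83, 494, 84, 201 and 98 units with pair-feeding and 125, 79, 217 and 123 units with ethanol, which overlapped (log2 fold change -0.20, adjusted p = 0.798, and 0.23 without pair-fed mouse 2). *Mcm3* fell in WT mice from 373 ± 63.1 (SD, n = 4) to 182 ± 65.5 units (n = 5), a log2 fold change of -1.09 ± 0.24 (adjusted p = 0.00997).

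*Mcm2* fell in WT mice from 327 ± 56.4 to 176 ± 58.1 units (log2 fold change -0.93 ± 0.23, adjusted p = 0.0189) and *Mcm4* from 270 ± 69.3 to 131 ± 55.9 units (-1.1 ± 0.30, adjusted p = 0.0285), in both with overlapping values. In the KO, *Mcm2* averaged 202 ± 119 units with pair-feeding and 296 ± 110 with ethanol, and *Mcm4* 249 ± 97.8 and 167 ± 44.9 units, neither of them called. *Mcm7*, the remaining ring subunit, was not called, with 600 ± 113, 594 ± 152, 571 ± 114 and 668 ± 47.1 units in pair-fed WT, pair-fed KO, EtOH-fed WT and EtOH-fed KO mice. Its log2 fold change in WT mice was -0.07 (95% interval -0.44 to 0.29, adjusted p = 0.822). Exons of *Mcm7* share 321 bases with *Ap4m1* and 64 with *Cops6* on the opposite strand, and the strand setting of the count is not given in the sources used here.

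*Cdc45*, which joins the ring in the working helicase, was listed at 58, 64, 86 and 92 units in pair-fed WT mice and at 28, 39, 37, 10 and 23 units in EtOH-fed WT mice, without overlap (log2 fold change -1.53 ± 0.39, adjusted p = 0.0213). *Cdt1*, which loads the ring onto origins, was listed at 144, 152, 176 and 145 units in pair-fed WT and at 52, 114, 102, 55 and 71 units in EtOH-fed WT mice, again without overlap (-1.03 ± 0.26, adjusted p = 0.0196). In EtOH-fed *Apoe* KO mice *Cdt1* was listed at 150, 112, 233 and 146 units, close to the pair-fed WT values, and its difference from EtOH-fed WT mice was 1.03 ± 0.29 on the log2 scale (adjusted p = 0.0627). *Cdc6*, the second loading factor, averaged 34.8 ± 15.6 units in pair-fed WT and 15.4 ± 5.77 in EtOH-fed WT mice and was not called (-1.08 ± 0.44, adjusted p = 0.124). The calls of *Mcm2* and *Cdc45* were lost without pair-fed WT mouse 3 or 4, that of *Cdt1* without mouse 3, and that of *Mcm4* without pair-fed WT mouse 2, 3 or 4 or EtOH-fed WT mouse 1 or 3.

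Among the genes of DNA synthesis, *Lig1* fell in WT mice and its ethanol effect differed between genotypes. *Lig1* encodes the ligase that joins Okazaki fragments (chromosome 7, 13277283 to 13311433). It was listed at 225, 341, 310 and 279 units in pair-fed WT mice, at 182, 326, 241, 235 and 177 in pair-fed KO mice, at 83, 141, 106, 123 and 117 in EtOH-fed WT mice and at 154, 158, 242 and 254 in EtOH-fed KO mice. The EtOH-fed WT values lay below those of every other mouse. The log2 fold change with ethanol was -1.34 ± 0.19 in WT mice (adjusted p = 0.000859) and -0.20 ± 0.22 in KO mice (adjusted p = 0.557), and the interaction was 1.14 ± 0.30 (adjusted p = 0.045). *Lig1* lies 6.38 Mb from *Apoe* on chromosome 7, and the part of sequence linked to the KO was not tested. It shares 247 exon bases with *Zswim9* on the opposite strand.

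The other 3 genes of DNA synthesis moved less. *Pcna*, the polymerase clamp, was listed at 1107, 1297, 1287, 1268 and 1012 units in pair-fed KO mice and at 853, 847, 1114 and 865 in EtOH-fed KO mice, and fell by 0.38 on the log2 scale (SE 0.12, adjusted p = 0.0334). In WT mice it averaged 1151 ± 57.3 units with pair-feeding and 935 ± 69.2 with ethanol, without overlap, and its log2 fold change of -0.30 ± 0.10 did not pass (adjusted p = 0.065). Its call in KO mice was lost without pair-fed mouse 2, 3 or 4 or EtOH-fed mouse 1, 2 or 5. *Pold1*, a polymerase subunit, and *Prim1*, a primase subunit, averaged 201 ± 59.4 and 166 ± 30.7 units in pair-fed WT and 141 ± 9.58 and 119 ± 27.0 units in EtOH-fed WT mice, with adjusted p = 0.157 and 0.153.

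For the supply of deoxynucleotides, *Tk1* stood out as the replication gene that fell in both genotypes. *Tk1* encodes thymidine kinase of the cytosol (chromosome 11, 117815526 to 117826092). It was listed at 1671, 1074, 1283 and 1525 units in pair-fed WT mice and at 557, 353, 391, 421 and 465 in EtOH-fed WT mice, a log2 fold change of -1.66 ± 0.16 (adjusted p = 4.17e-05). In KO mice it was listed at 1012, 772, 1590, 1319 and 1082 units with pair-feeding and at 452, 241, 274 and 350 units with ethanol, a log2 fold change of -1.81 ± 0.21 (adjusted p = 9.9e-05). No EtOH-fed mouse reached the lowest pair-fed mouse of either genotype. The interaction was -0.15 (95% interval -0.74 to 0.45, adjusted p = 0.845). Both calls stayed under every alternative tried and whichever mouse was left out. *Tk1* shares 83 exon bases with *Afmid* on the opposite strand.

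The subunits of ribonucleotide reductase and thymidylate synthase were not called in any comparison. With pair-feeding *Rrm1* averaged 436 ± 91.0 units in WT and 348 ± 116 in KO mice, and with ethanol 289 ± 97.9 and 372 ± 105 units. *Rrm2* ranged from 104 to 409 units and *Tyms* from 154 to 301 units over the 18 mice, with log2 fold changes in EtOH-fed WT mice of -0.21 and -0.43 (adjusted p = 0.507 and 0.134).

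*Uhrf1* gave the largest interaction among the members. It encodes the protein that brings the maintenance methyltransferase to newly copied DNA (chromosome 17, 56303321 to 56323486). Pair-fed WT mice lay close together at 115, 100, 110 and 108 units, while EtOH-fed WT mice were listed at 27, 43, 18, 34 and 22 units, a log2 fold change of -1.94 ± 0.29 (adjusted p = 0.00106). In pair-fed KO mice 4 of 5 values were low as well, at 27, 38, 57 and 34 units, with 139 in mouse 2, and EtOH-fed KO mice were listed at 50, 81, 151 and 81 units. The log2 fold change in KO mice was 0.77 ± 0.45 (adjusted p = 0.243), and it was called, at 1.14 (adjusted p = 0.0482), without mouse 2. Mouse 2 was the highest of its group, so that leaving it out had to raise this change.

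With ethanol, every KO mouse exceeded every WT mouse for *Uhrf1*, by 1.58 ± 0.37 on the log2 scale (adjusted p = 0.0285), and the interaction was 2.70 ± 0.56 (adjusted p = 0.0121). The difference between EtOH-fed genotypes lost its call without EtOH-fed WT mouse 1, 3 or 5 or EtOH-fed KO mouse 2, 4 or 5, with adjusted p-values up to 0.0847. *Dnmt1*, the methyltransferase itself, varied less, at 385 ± 46.2, 371 ± 65.8, 313 ± 57.1 and 404 ± 111 units in pair-fed WT, pair-fed KO, EtOH-fed WT and EtOH-fed KO mice. It was not called in any comparison, with an interaction of 0.41 ± 0.25 (adjusted p = 0.444).

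**Figure D5:**
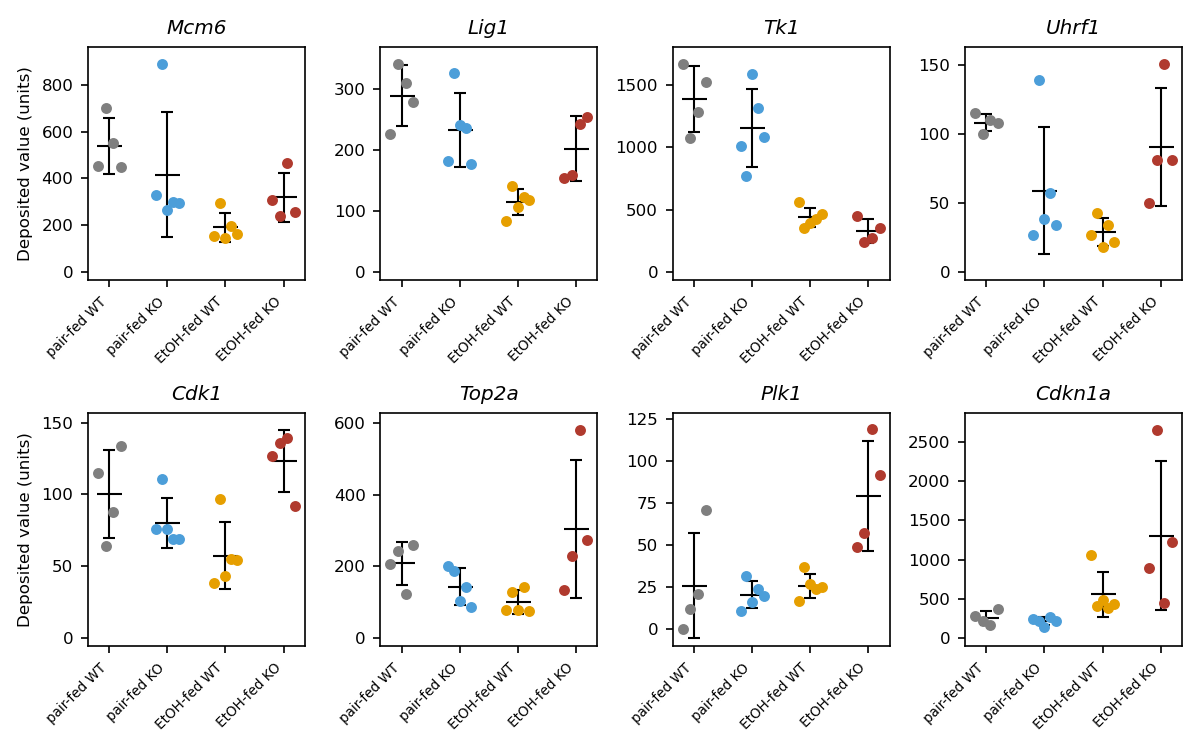
Deposited value (units, linear axis) of 8 genes in each mouse (points), with the mean and SD of each group (bars). EtOH-fed WT mice are low for *Mcm6*, *Lig1* and *Uhrf1*, both EtOH-fed groups are low for *Tk1* and high for *Cdkn1a*, and EtOH-fed *Apoe* KO mice are high for *Cdk1*, *Top2a* and *Plk1*.

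Of the regulators of G1 and S phase entry, *Cdkn1a* rose with ethanol in both genotypes. *Cdkn1a* (chromosome 17, 29090976 to 29100727) encodes p21, which holds back cyclin-dependent kinases and is induced by p53. It was listed at 277, 216, 170 and 375 units in pair-fed WT and at 1062, 411, 486, 379 and 439 units in EtOH-fed WT mice, a log2 fold change of 1.04 ± 0.29 (adjusted p = 0.0325). Pair-fed KO mice were listed at 239, 221, 142, 273 and 220 units and EtOH-fed KO mice at 897, 2659, 450 and 1219 units, a log2 fold change of 2.31 ± 0.37 (adjusted p = 0.000808). In both genotypes all EtOH-fed values lay above the pair-fed ones, though by only 4 units between the nearest WT mice.

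The rise of *Cdkn1a* in KO mice stayed under every alternative and whichever mouse was left out. The rise in WT mice lost its call without pair-fed mouse 1, 2 or 3 or EtOH-fed mouse 3, with voom (adjusted p = 0.0629) and in a fit of all 18 mice (adjusted p = 0.0636). The interaction was 1.27 ± 0.53 (adjusted p = 0.216), so that the ethanol effect was not shown to differ between genotypes. EtOH-fed *Apoe* KO mouse 4, the highest of its group for every mitosis gene, was the lowest of its group for *Cdkn1a*. For the mean over the mitosis genes, mice 5, 2 and 1 followed at 0.55, 0.14 and 0.07, with 1219, 2659 and 897 units of *Cdkn1a*.

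The cyclins of G1 were not called. *Ccnd1*, cyclin D1, averaged 1964 ± 781, 1709 ± 408, 1728 ± 880 and 1374 ± 306 units in pair-fed WT, pair-fed KO, EtOH-fed WT and EtOH-fed KO mice, with overlapping values in every comparison. *Ccnd1* shares 1100 exon bases with LTO1 on the opposite strand. *Ccne1* and *Ccne2*, the E-type cyclins, averaged 44.0 ± 14.3 and 83.8 ± 16.9 units in pair-fed WT mice and 67.4 ± 22.7 and 110 ± 21.0 in pair-fed KO mice. With ethanol they averaged 30.4 ± 6.27 and 87.2 ± 28.8 units in WT mice and 41.0 ± 13.0 and 86.2 ± 9.88 units in KO mice.

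Among the mitosis genes, the genes *Cdk1*, *Ccna2*, *Ccnb1*, *Ccnb2* and *Plk1*, for kinases and cyclins of mitotic entry, had their highest group means in EtOH-fed *Apoe* KO mice, while *Aurka*, for another such kinase, averaged 115 ± 26.6 units in pair-fed WT and 112 ± 32.7 in EtOH-fed KO mice. *Cdk1* (chromosome 10, 69335146 to 69352938) was listed at 115, 64, 88 and 134 units in pair-fed WT, at 76, 111, 76, 69 and 69 in pair-fed KO, at 38, 97, 43, 55 and 54 in EtOH-fed WT and at 127, 136, 139 and 92 in EtOH-fed KO mice. The EtOH-fed KO values lay above those of EtOH-fed WT mice except for an overlap of mouse 5 with EtOH-fed WT mouse 2. The difference was 1.15 ± 0.29 on the log2 scale (adjusted p = 0.0396) and the interaction 1.44 ± 0.39 (adjusted p = 0.047). Within each genotype the ethanol effect was not called, at -0.82 ± 0.31 in WT mice (adjusted p = 0.102) and 0.62 ± 0.23 in KO mice (adjusted p = 0.0695).

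*Ccnb1*, cyclin B1, was listed at 30, 30, 26, 27 and 25 units in pair-fed KO mice and at 48, 29, 172 and 146 units in EtOH-fed KO mice, with a rise of 1.45 ± 0.47 on the log2 scale (adjusted p = 0.0391). *Ccna2*, cyclin A2, was listed at 42, 111, 40, 62 and 39 units and at 85, 72, 217 and 181 units in the same groups, a rise of 1.19 ± 0.40 (adjusted p = 0.043). In both genes EtOH-fed mice 4 and 5 carried the high values. These mice were the shallowest libraries of their group, at 7.88 and 8.39 M estimated reads. *Ccnb1* was called only with EtOH-fed mice 4 and 5 and all 5 pair-fed mice in the fit. *Ccna2* lost its call without EtOH-fed mouse 4 or 5 or pair-fed mouse 1, 3, 4 or 5, and shares 510 exon bases with *Exosc9* on the opposite strand. *Ccnb2* ranged from 38 to 93 and from 42 to 111 units in these groups and was not called (adjusted p = 0.467).

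*Plk1*, a kinase of mitotic entry and spindle assembly (chromosome 7, 122159439 to 122169873), was listed at 0, 12, 21 and 71 units in pair-fed WT and at 11, 32, 16, 24 and 20 in pair-fed KO mice. With ethanol it was listed at 17, 37, 27, 24 and 25 units in WT mice and at 49, 57, 119 and 92 in KO mice, where every value exceeded those of the other EtOH-fed and of the pair-fed KO group. The rise in KO mice was 1.89 ± 0.40 on the log2 scale (adjusted p = 0.00451) and was called whichever mouse was left out, but not in a fit of all 18 mice (adjusted p = 0.0764). The difference between EtOH-fed genotypes was 1.52 ± 0.35 (adjusted p = 0.0262), and its call was lost without EtOH-fed WT mouse 1 or EtOH-fed KO mouse 4 or 5, and in the fit of all 18 mice (adjusted p = 0.268). In WT mice the change of 1.13 ± 0.91 (adjusted p = 0.456) rested on the 0 of pair-fed mouse 1, the shallowest library at 5.6 M reads, and was -0.06 without it.

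*Mki67* encodes the Ki-67 protein that marks cycling cells (chromosome 7, 135689784 to 135716361). It was listed at 104, 213, 162 and 306 units in pair-fed WT, at 68, 150, 101, 168 and 134 in pair-fed KO, at 87, 209, 87, 143 and 103 in EtOH-fed WT and at 180, 232, 426 and 250 in EtOH-fed KO mice. The EtOH-fed KO mice lay above all pair-fed KO mice, with a log2 fold change of 1.12 ± 0.29 (adjusted p = 0.0142) that was called under every alternative and whichever mouse was left out. Against EtOH-fed WT mice the difference was 1.12 ± 0.30 (adjusted p = 0.049), at the edge of the threshold, and 7 of 9 fits without 1 mouse lost it. The interaction was 1.73 ± 0.47 (adjusted p = 0.0483).

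*Top2a* (chromosome 11, 98992943 to 99024189) was listed at 207, 243, 123 and 259 units in pair-fed WT and at 77, 128, 77, 143 and 76 in EtOH-fed WT mice, a fall of 1.05 on the log2 scale (SE 0.27, adjusted p = 0.0242). In KO mice it was listed at 201, 187, 102, 141 and 85 units with pair-feeding and at 133, 229, 581 and 273 with ethanol, a change of 0.95 ± 0.37 that did not pass (adjusted p = 0.0776). Mouse 4 held more than the other 3 EtOH-fed KO mice by a wide margin. The difference between EtOH-fed genotypes was 1.44 ± 0.36 (adjusted p = 0.0376) and the interaction 2.0 ± 0.50 (adjusted p = 0.0317). The fall in WT mice lost its call without pair-fed mouse 1, 2 or 4 or EtOH-fed mouse 1 or 3.

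*Cdc20*, which activates the anaphase-promoting complex, was listed at 37, 66, 47, 43 and 33 units in EtOH-fed WT and at 75, 74, 135 and 115 in EtOH-fed KO mice, without overlap (1.12 ± 0.29, adjusted p = 0.0469). It rose in KO mice from 8, 88, 26, 45 and 33 units with pair-feeding (1.60 ± 0.52, adjusted p = 0.0404). Both calls lie near the threshold, and each was kept in 2 of 9 fits without 1 mouse. *Cdc20* shares 53 exon bases with *Elovl1* on the opposite strand.

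Of the genes for the spindle and its checkpoint, *Tpx2* and *Bub1b* were called for the interaction. *Tpx2*, a spindle assembly factor, averaged 82.2 ± 24.5, 51.2 ± 15.1, 52.0 ± 12.7 and 131 ± 73.0 units in pair-fed WT, pair-fed KO, EtOH-fed WT and EtOH-fed KO mice. It rose with ethanol in KO mice (1.22 ± 0.36, adjusted p = 0.0248), with an interaction of 1.86 ± 0.46 (adjusted p = 0.0312). *Bub1b*, a checkpoint kinase, averaged 77.5 ± 30.0, 41.2 ± 21.1, 36.4 ± 10.1 and 96.2 ± 56.5 units, with an interaction of 2.23 ± 0.56 (adjusted p = 0.034). Neither of its ethanol effects was called on its own, at -1.04 ± 0.34 in WT (adjusted p = 0.0616) and 1.20 ± 0.42 in KO mice (adjusted p = 0.0554).

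The remaining mitosis genes were not called in any comparison, namely *Ccnb2*, *Birc5*, *Aurka*, *Aurkb*, *Kif11*, *Stmn1* and *Dsn1*. *Birc5*, which encodes survivin, came closest with ethanol in WT mice, where values of 59, 55, 46, 52 and 33 units lay below pair-fed values of 69, 131, 64 and 140 (log2 fold change -0.97 ± 0.30, adjusted p = 0.0514). *Stmn1*, a tubulin-binding protein, was listed at 289 to 434 units in EtOH-fed KO and 186 to 307 in EtOH-fed WT mice (0.57 ± 0.18, adjusted p = 0.0925). *Dsn1*, of the kinetochore, was the mitosis gene below 0 with ethanol in KO mice, at 65.0 ± 21.0 units with pair-feeding and 51.2 ± 21.7 with ethanol (-0.37 ± 0.34, adjusted p = 0.467).

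Other genes of the same pathways, from lists that do not hold the members, were read from the same fits. Their counts stand beside the shares of all genes called, which were 6.19% higher and 6.52% lower with ethanol in WT mice, 16.3% and 6.92% in KO mice, and 4.25% and 0.445% between the EtOH-fed genotypes. Of 48 other replication genes, 20 fell and 0 rose with ethanol in WT mice, and 10 fell and 2 rose in KO mice, while 0 were called between the EtOH-fed genotypes (limma, 4 higher and 2 lower at an unadjusted p under 0.05). The largest falls in WT mice were those of *Asf1b* (-2.01 ± 0.40), *Gins2* (-1.67 ± 0.46) and *Pole* (-1.47 ± 0.24). *Gins1*, *Gmnn*, *Pold2*, *Rfc5* and *Rpa3* were among those that fell in both genotypes. *Rfc5*, a subunit of the clamp loader, averaged 290 ± 39.6 units in pair-fed KO and 172 ± 30.2 in EtOH-fed KO mice (-0.76 ± 0.18, adjusted p = 0.00782). The median log2 fold change of the list was -0.65 in WT and -0.23 in KO mice, against -0.01 and 0.13 over all genes.

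Of 64 other mitosis genes, 1 rose and 12 fell with ethanol in WT mice, 13 rose and 2 fell in KO mice, and 3 were higher in EtOH-fed KO than in EtOH-fed WT mice (*Racgap1*, *Hmmr* and *Kif22*). The counts of 13 and 3 of 64 are near the shares of all genes, 16.3% and 4.25%. The list had median log2 fold changes of -0.49 in WT mice, 0.52 in KO mice and 0.77 between the EtOH-fed genotypes. *Racgap1*, a protein of cytokinesis, was listed at 25, 63, 78, 39 and 47 units in EtOH-fed WT and at 73, 112, 213 and 158 units in EtOH-fed KO mice (1.44 ± 0.37, adjusted p = 0.0432). *Bub1* had the largest rise in KO mice, from 8.8 ± 5.36 to 42.8 ± 26.8 units (2.43 ± 0.77, adjusted p = 0.0363). *Spc24* and *Spc25*, which link the kinetochore to microtubules, fell in both genotypes. *Spc24* fell from 483 ± 102 to 149 ± 27.0 units in WT (-1.69 ± 0.19, adjusted p = 0.000146) and from 296 ± 51.8 to 143 ± 13.4 units in KO mice (-1.03 ± 0.17, adjusted p = 0.00109). Of 3 partners of *Dsn1* in the MIS12 complex, *Pmf1* fell in both genotypes as well (-0.74 ± 0.13 and -0.55 ± 0.12). The interaction was called in 5 of 64, with *Espl1*, the separase, at 2.54 ± 0.55 (adjusted p = 0.0156).

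Of 27 other regulators of G1 and S phase entry, *Cdkn2a* moved in opposite directions in the 2 genotypes. *Cdkn2a* encodes the inhibitors p16 and p19ARF. It fell with ethanol in WT mice from 140 ± 57.4 to 42.2 ± 32.6 units (-1.97 ± 0.56, adjusted p = 0.0344) and rose in KO mice from 47.0 ± 41.1 to 203 ± 104 units (2.28 ± 0.57, adjusted p = 0.0112), with an interaction of 4.24 ± 0.88 (adjusted p = 0.0121). *E2f1*, an activator of S phase genes, fell in WT mice from 146 ± 19.1 to 85.4 ± 19.3 units (-0.79 ± 0.21, adjusted p = 0.0284) and was higher in EtOH-fed KO mice, at 179 ± 36.0 units (1.06 ± 0.23, adjusted p = 0.019). *Cdk2* and *E2f8* fell in both genotypes, *Cdk2* by 1.12 in WT mice and by 0.99 in KO mice on the log2 scale. In all, 1 rose and 5 fell in WT mice, 6 rose and 4 fell in KO mice, and 3 were higher in EtOH-fed KO than in EtOH-fed WT mice, and the 1 and 6 of 27 that rose are near the shares of all genes, 6.19% and 16.3%. *Ccnd2*, cyclin D2, was lower in pair-fed KO mice (-1.01 ± 0.18, adjusted p = 0.0129), the one gene of the pathway lists called on that diet.

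Of 28 p53 target genes other than *Cdkn1a*, 4 rose and 0 fell with ethanol in WT mice, 6 rose and 1 fell in KO mice, and 1, *Pmaip1*, was higher in EtOH-fed KO than in EtOH-fed WT mice. The counts in KO mice are near the shares of all genes, 16.3% higher and 6.92% lower. *Gdf15*, a stress cytokine, and *Ddit4*, an inhibitor of mTORC1, rose in both genotypes, *Ddit4* at the edge of the threshold in WT mice (limma, adjusted p = 0.0499). *Trp53inp1* rose in WT mice (1.17 ± 0.16, adjusted p = 0.000469) and was not called in KO mice (0.43, adjusted p = 0.197). *Gdf15* was listed at 167 to 482 units in pair-fed WT and 401 to 5591 units in EtOH-fed WT mice (2.27 ± 0.65, adjusted p = 0.0354), and at 179 to 994 and 1220 to 3619 units in KO mice (2.0 ± 0.41, adjusted p = 0.00359). The list's median log2 fold changes, 0.12 in WT and 0.37 in KO mice, compare with -0.01 and 0.13 over all genes.

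Some markers of other cells also differed between the EtOH-fed genotypes. Of 6 Kupffer cell markers, 6 were higher in EtOH-fed KO mice, with a summed level of 11135 to 21513 units against 4502 to 8553 in EtOH-fed WT mice, where 4.25% of all genes were higher. Of 7 monocyte and macrophage markers 4 were higher (4825 to 7807 against 1734 to 2916 units), of 6 stellate cell markers 2 (16707 to 30220 against 8967 to 15010), of 6 B and plasma cell markers 2 (867 to 1954 against 335 to 777) and of 4 cholangiocyte markers 1 (687 to 2128 against 326 to 798). None was called of 6 hepatocyte markers (2273787 to 3197386 against 2147182 to 3762918 units), 7 T and NK cell markers, 5 endothelial markers, and the 4 of 6 erythroid and 2 of 8 neutrophil markers in the table, where limma gave an unadjusted p under 0.05 for 1 hepatocyte and 1 erythroid marker.

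With ethanol in WT mice, where the replication genes fell, 2 of 6 Kupffer cell markers fell (summed 7352 to 13531 with pair-feeding and 4502 to 8553 with ethanol), 1 of 6 B and plasma cell markers and 1 of 4 cholangiocyte markers fell, and 4 of 5 endothelial markers and 1 of 6 hepatocyte markers rose, where 6.19% of all genes rose and 6.52% fell. With ethanol in KO mice, 5 of 6 stellate, 4 of 5 endothelial, 2 of 6 Kupffer, 2 of 7 macrophage, 2 of 6 B and plasma cell, 2 of 4 erythroid, 1 of 7 T and NK cell and 1 of 4 cholangiocyte markers rose, while 1 hepatocyte marker rose and 1 fell, where 16.3% of all genes rose and 6.92% fell. No marker of these lists was at 0 in every mouse of a group. The part of these cells in the levels of the cell cycle genes was not tested.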

How the data were processed

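Poly(A) RNA of whole liver from 18 mice was sequenced. The deposited signal values are read counts per gene that the authors obtained with Trimmomatic, HISAT2 and featureCounts on GRCm38, then brought to near-equal totals and rounded. Tool versions and the strand setting are not given in the sources used here. The table's own fold change and p-value columns were not used. Of 15247 rows, 195 repeats of a gene were dropped, which left 15052 genes, none with a mean under 12.06 units.

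Since the values are not raw counts, log2(value + 1) was fitted with limma 3.58.1 (R 4.3.3, moderated test with an intensity trend), using the samples of the 2 groups compared, or all 18 for the interaction of diet and genotype. Genes were called at a Benjamini-Hochberg adjusted p under 0.05 over all 15052 genes. The step was tested on simulated data. Fold changes on this scale can understate changes of low genes, while a value of 0 can enlarge them, as for *Plk1* in WT mice. Groups and mouse numbers came from the labels, which do not say that mice sharing a number are related. The alternatives were size factors, pseudocounts of 0.1 and 10, a mean of at least 50, sample weights, voom on estimated reads, all samples in 1 fit, a replicate block, the study's criterion and leaving out each mouse.

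Members and gene lists were chosen with earlier results of these data known. Values are given for every member called in any comparison and for the 4 members of each class with the largest absolute log2 fold change. Members outside that rule are given for completeness. Of other lists, only some of the called genes are named. One gene of the other lists is not reported here.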

Additional observations from a re-analysis of the deposited data

Results flagged for a closer look

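Of 168 sets of values of a member or class mean within a group, 7 held a mouse whose gap to the nearest other mouse was a large share of the group's range on the log2(value + 1) scale (Dixon's ratio), where chance flags about 1 in 20, or 8.4. In pair-fed *Apoe* KO mouse 2, the highest of its group, the ratio was 0.733 for *Mcm2*, 0.822 for *Mcm6* and 0.797 for *Cdk1*. It was 0.923 for *Pcna* in EtOH-fed *Apoe* KO mouse 4 and 0.759 for *Cdkn1a* in EtOH-fed WT mouse 1, both the highest of their group. It was 0.834 for *Dnmt1* in pair-fed WT mouse 1 and 0.731 for *Bub1b* in EtOH-fed WT mouse 3, both the lowest of their group.

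The ethanol effect differed between genotypes by the interaction term (limma, adjusted over all genes) in 7 members, each with the higher log2 fold change in *Apoe* KO mice. The interaction was 1.14 for *Lig1* (adjusted p = 0.045), 2.70 for *Uhrf1* (adjusted p = 0.0121) and 1.44 for *Cdk1* (adjusted p = 0.047). It was 1.73 for *Mki67* (adjusted p = 0.0483), 2.0 for *Top2a* (adjusted p = 0.0317), 2.23 for *Bub1b* (adjusted p = 0.034) and 1.86 for *Tpx2* (adjusted p = 0.0312).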

How the results depend on the processing

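Between EtOH-fed and pair-fed WT mice, the falls of *Mcm3*, *Mcm5*, *Mcm6*, *Lig1*, *Tk1* and *Uhrf1* were called under every alternative and without any 1 mouse, and the number of members called was 11 to 13 under other settings and 8 to 13 without 1 mouse. Between EtOH-fed and pair-fed *Apoe* KO mice, *Tk1*, *Cdkn1a* and *Mki67* were called throughout. The number called there was 7 with size factors, 6 with voom, 5 with the replicate block and 4 to 11 without 1 mouse. Between the EtOH-fed genotypes, 6 members became 2 with size factors, 1 with sample weights, 3 with voom, 12 by the study's criterion and 0 to 8 without 1 mouse, and no member was called throughout. Between the pair-fed genotypes, 0 became 1 by the study's criterion and 0 to 4 without 1 mouse. For the interaction, 7 became 4 with size factors, 4 with sample weights, 2 with voom, 1 with the replicate block (*Mki67*), 18 by the study's criterion and 1 to 12 without 1 mouse. The cause of these moves was not tested, and a fit without 1 mouse also holds fewer mice.

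Over all genes, the count between EtOH-fed genotypes was 706, 1083 with the replicate block and 327 to 620 without 1 mouse. With ethanol it was 1912 in WT mice (826 by the study's criterion, 1186 to 1904 without 1 mouse) and 3488 in *Apoe* KO mice (1265 by that criterion). Between pair-fed genotypes it was 261, with 456 under sample weights, 392 with the block, 419 by the criterion and 73 to 670 without 1 mouse. For the interaction it was 428, with 1121 by the criterion and 167 to 561 without 1 mouse.

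The mouse numbers were not shown to pair the mice. In deviations from group means, same-numbered EtOH-fed mice of both genotypes correlated above 0.1 in 3 of 4 pairs (mean 0.135). EtOH-fed pairs of unlike number did so in 2 of 16 (mean -0.0327). In the other comparisons at most 1 of 4 same-numbered pairs did. With the replicate block the *Uhrf1* interaction was 2.12 (adjusted p = 0.0753).

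Changes of sign occurred only in members that were not called in that comparison. Between EtOH-fed genotypes, *Ccne2* went from 0.03 to -0.09 with size factors and -0.04 with the block, and without 1 mouse *Ccne2* ranged from -0.07 to 0.20, *Pcna* from -0.13 to 0.01 and *Ccnd1* from -0.37 to 0.02. In WT mice, *Ccne2* was -0.09 with voom, -0.14 with the block and -0.14 to 0.13 without 1 mouse, and *Plk1* -0.06 to 1.99. In *Apoe* KO mice, *Mcm5* ranged from -0.46 to 0.23 and *Mcm6* from -0.47 to 0.05. Between pair-fed genotypes, *Mcm4* was 0.03 with the block and -0.37 to 0.03 without 1 mouse, *Ccnd1* -0.40 to 0.08 and *Plk1* -0.43 to 1.63. For the interaction, *Mcm4* was -0.27 with the block and *Plk1* -0.02 with a pseudocount of 0.1, and without 1 mouse *Ccnd1* ranged from -0.30 to 0.18, *Ccne1* from -0.39 to 0.04 and *Plk1* from -0.11 to 1.95.

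Labels name separate mice, and groups of 4 or 5 limit the precision. Members with a mean under 50 units rest on few reads in the shallow libraries.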
